A study of Mus musculus with 2 samples.

Results

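The mitochondrial ribosomal protein genes are the nuclear genes whose symbols begin with Mrpl or Mrps followed by a number. A gene was taken as a member where the deposited peak table held a peak, within 1 kb of its start, that was assigned to an identifier matched to such a symbol. The peak with the highest summed count in both libraries stood for the gene. This gave 64 members of 78 such symbols in RefSeq, among 11965 protein-coding genes with a promoter peak. Open chromatin was assayed by ATAC-seq, a method that inserts sequencing adapters into accessible DNA with a transposase, on nuclei of mouse heart. The control library came from Ythdc1flox/flox mice and the knockout library from cardiac-specific Ythdc1 CKO mice, in which the floxed gene is deleted. Both were 15 days of age on a normal chow diet, and there was 1 library of each genotype. The sources used here do not give the Cre driver, the number of animals in a library or their pooling.

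Mitochondria keep their own ribosome, which makes the few proteins encoded by mitochondrial DNA, nearly all of them subunits of the respiratory chain and ATP synthase. Its RNA comes from the mitochondrial genome, but every one of its proteins is encoded in the nucleus, made in the cytosol and imported. Some of these proteins have counterparts in bacterial ribosomes, and others were added during the evolution of mitochondria. The heart depends on respiration for its contraction, and inherited defects of several of these proteins cause cardiomyopathy.

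The control library held 6755590 counts in 58076 peaks and the knockout library 6466537. Ythdc1, whose protein binds methylated adenosines of RNA in the nucleus, had a promoter peak with 358 control and 314 knockout counts, which does not check the labels because the deleted part may lie elsewhere in the gene. Of 8 heart muscle marker genes, 6 had a promoter peak, with 161 to 799 counts in the control and 109 to 758 in the knockout. The 4 endothelial markers held 82 to 200 and 103 to 269 counts, the 4 fibroblast markers 58 to 272 and 39 to 370, and 2 of 3 mural markers 68 to 117 and 72 to 165. None of the 3 leukocyte markers had a promoter peak under a matched name. Median log2 ratios of knockout to control were 0.09 for the heart muscle, 0.35 for the endothelial, 0.05 for the fibroblast and 0.35 for the mural markers. Single heart muscle markers ran from -0.63 to 0.23 and fibroblast markers from -0.50 to 0.51. Endothelial markers ran from -0.06 to 0.50 and mural markers from 0.145 to 0.56. The part of these cell types in the results below was not tested. In whole tissue a different share of cells and a different accessibility per cell cannot be told apart.

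Promoters of the mitochondrial ribosomal proteins were called as peaks in both libraries for 63 of 64 genes (98.4%). That share was 90.4% of all gene promoters and 97.7% of those with summed counts in the members' range. For 49 members the counting interval of the ratio of knockout to control held 1 (70.8% of all gene promoters). Mrpl16 and Mrpl2, which encode large subunit proteins, were the 2 members at least 1.5-fold higher in the knockout by CPM over peaks (3.88% of all gene promoters). The Mrpl16 peak was called in the knockout alone, so it entered through the library where it was high. Mrpl19, another large subunit gene, was the only member at least 1.5-fold lower (4.97%), also by CPM over peaks. Over the 64 members the median log2 ratio was 0.05, and over all 11965 gene promoters it was -0.02. All ratios are of CPM, the count as a share of all counts in peaks, with 0.5 counts added, and a positive log2 ratio means more signal in the knockout. With 1 library per genotype there was no test between genotypes, and the exact (Clopper-Pearson) 95% intervals given for ratios cover counting error only.

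To show what these promoters look like, 6 are printed from 160 bases before to the 20th base from the RefSeq start, on the gene's own strand, as RefSeq gives them for GRCm38.p6. Capitals mark matches to a searched motif, and other matches were left in lower case. Mrpl16, the member with the highest ratio, lies at chr19:11770255-11770434. It holds a TATA box (TATAAA) 68 to 63 bases upstream of the start and a cyclic AMP response element (TGACGTCA) 49 to 42 bases upstream. Mrpl2, with the next highest ratio, lies at chr17:46646061-46646240. It holds 2 CCAAT boxes on the other strand, 100 to 96 and 17 to 13 bases upstream, and an E box (TCACGTG) on both strands between 132 and 125 bases upstream. Mrpl9, with the lowest ratio among the printed ones, lies at chr3:94443176-94443355 and holds the NRF1 palindrome 28 to 19 bases upstream. Mrpl43, at chr19:45006423-45006602 on the minus strand, and Mrpl53, at chr6:83108948-83109127, each hold 2 copies of the ETS motif (CCGGAAG), the most frequent of the 3 motifs of known mitochondrial gene regulators here. Mrps11, at chr7:78782971-78783150, holds a YY1 motif (AAGATGGC) on the other strand 107 to 100 bases upstream, and its promoter is shared with Mrpl46.
Mrpl16: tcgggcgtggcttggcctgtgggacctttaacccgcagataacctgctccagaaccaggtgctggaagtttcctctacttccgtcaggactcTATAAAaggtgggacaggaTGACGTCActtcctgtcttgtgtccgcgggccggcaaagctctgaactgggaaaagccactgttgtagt
Mrpl2: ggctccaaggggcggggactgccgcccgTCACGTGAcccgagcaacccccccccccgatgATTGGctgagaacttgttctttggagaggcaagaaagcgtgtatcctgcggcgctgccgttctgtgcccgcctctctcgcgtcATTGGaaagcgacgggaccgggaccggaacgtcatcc
Mrpl9: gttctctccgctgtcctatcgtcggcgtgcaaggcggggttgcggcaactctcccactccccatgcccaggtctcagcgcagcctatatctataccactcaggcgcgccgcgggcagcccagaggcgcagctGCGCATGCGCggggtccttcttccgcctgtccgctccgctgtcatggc
Mrpl43: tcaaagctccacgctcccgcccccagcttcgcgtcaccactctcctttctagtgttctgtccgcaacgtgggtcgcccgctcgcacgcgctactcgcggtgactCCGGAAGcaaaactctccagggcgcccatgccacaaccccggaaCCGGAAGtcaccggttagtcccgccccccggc
Mrpl53: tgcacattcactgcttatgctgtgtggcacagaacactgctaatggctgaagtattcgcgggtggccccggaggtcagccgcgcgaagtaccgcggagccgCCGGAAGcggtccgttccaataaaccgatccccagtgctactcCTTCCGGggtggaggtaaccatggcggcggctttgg
Mrps11: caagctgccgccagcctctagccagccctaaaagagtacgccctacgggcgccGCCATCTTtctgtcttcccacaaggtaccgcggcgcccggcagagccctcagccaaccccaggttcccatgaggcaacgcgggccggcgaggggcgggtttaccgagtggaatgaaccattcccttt

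Motifs were counted on both strands of the 300 bases from 250 before to 50 after the start, for the 55 members and the 8093 protein-coding genes whose RefSeq start lay inside the peak. The ETS motif, bound by the family that includes the GABP regulator of mitochondrial genes, was present in 21 member promoters (38.2%) and in 18.9% of all. The YY1 motif, for a zinc finger factor, was present in 7 members (12.7%) and in 4.82% of all. The core of the site for NRF1, the nuclear respiratory factor, is GCATGC, and it was present in 6 members (10.9%) and in 10.4% of all. The NRF1 palindrome, which is this core with GC repeated before and after it and so overlaps it, was present in 2 members (3.64%), Mrpl9 and Mrpl39, and in 2.32% of all. Any of ETS, YY1 and the NRF1 core was present in 30 of 55 members (54.5%) and in 30.6% of all. A GC box (GGGCGG) was present in 28 members (50.9%) and in 69.5% of all, and the median content of G and C was 58.0% against 62.0%. CCAAT was present in 19 (34.5%, against 39.1%), TATAAA in 4 (7.27%, against 6.12%), TCACGTG in 3 (5.45%, against 6.54%) and TGACGTCA in 2 (3.64%, against 3.58%).

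Compared with 2 similar families, the ETS share lay between that of the cytosolic ribosomal proteins (43.8% of 48) and that of the respiratory chain subunits (23.1% of 52). The YY1 share of the members was nearer to the respiratory chain subunits, with 15.4%, than to the cytosolic ribosomal proteins, with 4.17%. The NRF1 core was present in 21.2% of respiratory chain promoters and 10.4% of cytosolic ribosomal protein promoters. Any of ETS, YY1 and the NRF1 core was present in 58.3% of cytosolic ribosomal protein promoters and 48.1% of respiratory chain promoters. For the GC box these shares were 60.4% and 36.5%, with the members between the families each time. Median content of G and C was 57.5% and 57.2%, near that of the members. In these measures both families thus differed from all genes in the same direction as the members. A first count used the nearest RefSeq window of each gene whether or not its start lay in the peak, and gave ETS in 22 of 58 members (37.9%, against 16.8% of 9573 genes) and YY1 in 8 (13.8%, against 4.26%). The median log2 ratio was 0.05 in the 21 members with the ETS motif and 0.03 in the 34 without it. It was 0.11 in the 7 members with the YY1 motif and 0.02 in the 48 without. A match is a description of letters, and these shares were not tested.

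**Figure D1:**
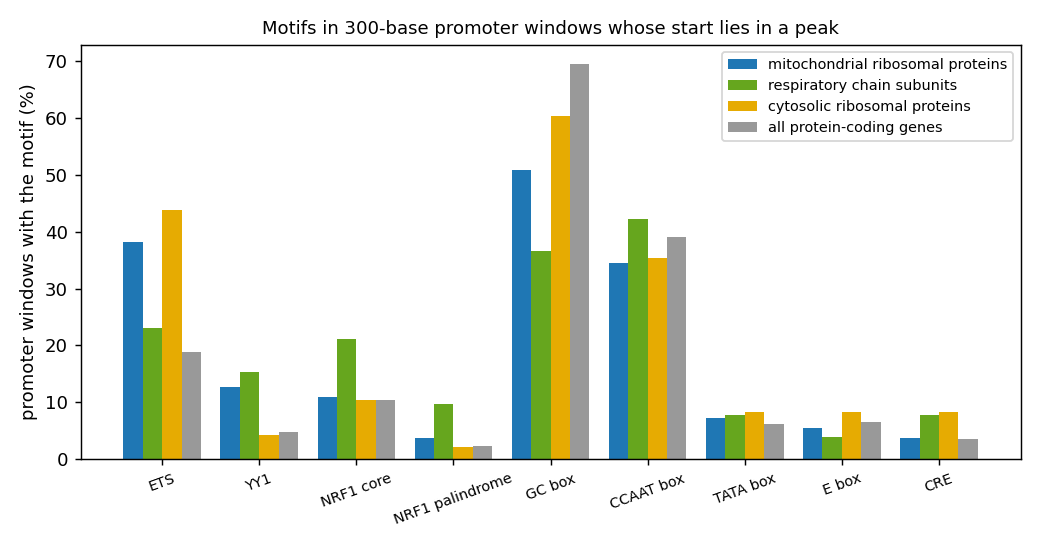
Share of promoter windows (%, vertical axis) that hold each of 9 motifs on either strand, for 55 mitochondrial ribosomal protein genes, 52 respiratory chain subunit genes, 48 cytosolic ribosomal protein genes and 8093 protein-coding genes. The ETS bar of the mitochondrial ribosomal proteins is at 38.2% against 18.9% for all genes, and their GC box bar is at 50.9% against 69.5%.

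Across the members, 38 had a log2 ratio above 0 and 26 below, while 46% of all gene promoters were above 0. The ratios ran from -0.71 to 1.27, with quartiles of -0.13 and 0.15 against -0.21 and 0.16 over all genes. Their SD was 0.28, against 0.36 over all genes and 0.29 over the 10154 genes with summed counts in the members' range. The root mean square counting error of a log2 ratio was 0.15 in the members and 0.15 in those 10154 genes. The 2 members at least 1.5-fold higher stood against 3.88% of all genes, and the 1 member lower against 4.97%. In either direction that was 3 of 64 members, beside 8.85% of all genes and 4.81% of genes in the same range of counts. At 2-fold, 1 member was higher (1.04% of all genes) and 0 were lower (1.15%). The interval of the ratio held 1 for 49 members (70.8% of all genes), lay above 1 for 8 (13%) and below 1 for 7 (16.2%).

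The sign of the median, and which members passed 1.5-fold, depended on the scale. The authors' RPM values, scaled to the reads of each library, place the knockout lower by 0.172 on the log2 scale than counts over peaks do. On that scale 15 members were above 0 and 49 below, with 1 (Mrpl16) at least 1.5-fold higher, against 2.07% of all gene promoters, and 3 (Mrpl19, Mrpl9 and Mrps31) lower, against 10.1%. Intervals of 3 members (Mrpl16, Mrpl2 and Mrps25) lay above 1 and those of 20 below, in place of 8 and 7. The share of all gene promoters with such intervals was not counted on that scale, so these counts do not set the members apart. With TMM scaling, which centres the bulk of the peaks, 3 members (Mrpl16, Mrpl2 and Mrps25) were at least 1.5-fold higher, against 4.81% of all, and 1 (Mrpl19) lower, against 3.93%. On the RPM scale the median was -0.12 in the members and -0.20 over all gene promoters, of which 23.4% were above 0. The same shift applies to the members and lists below, whose values are on the CPM scale unless another is named.

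**Figure D2:**
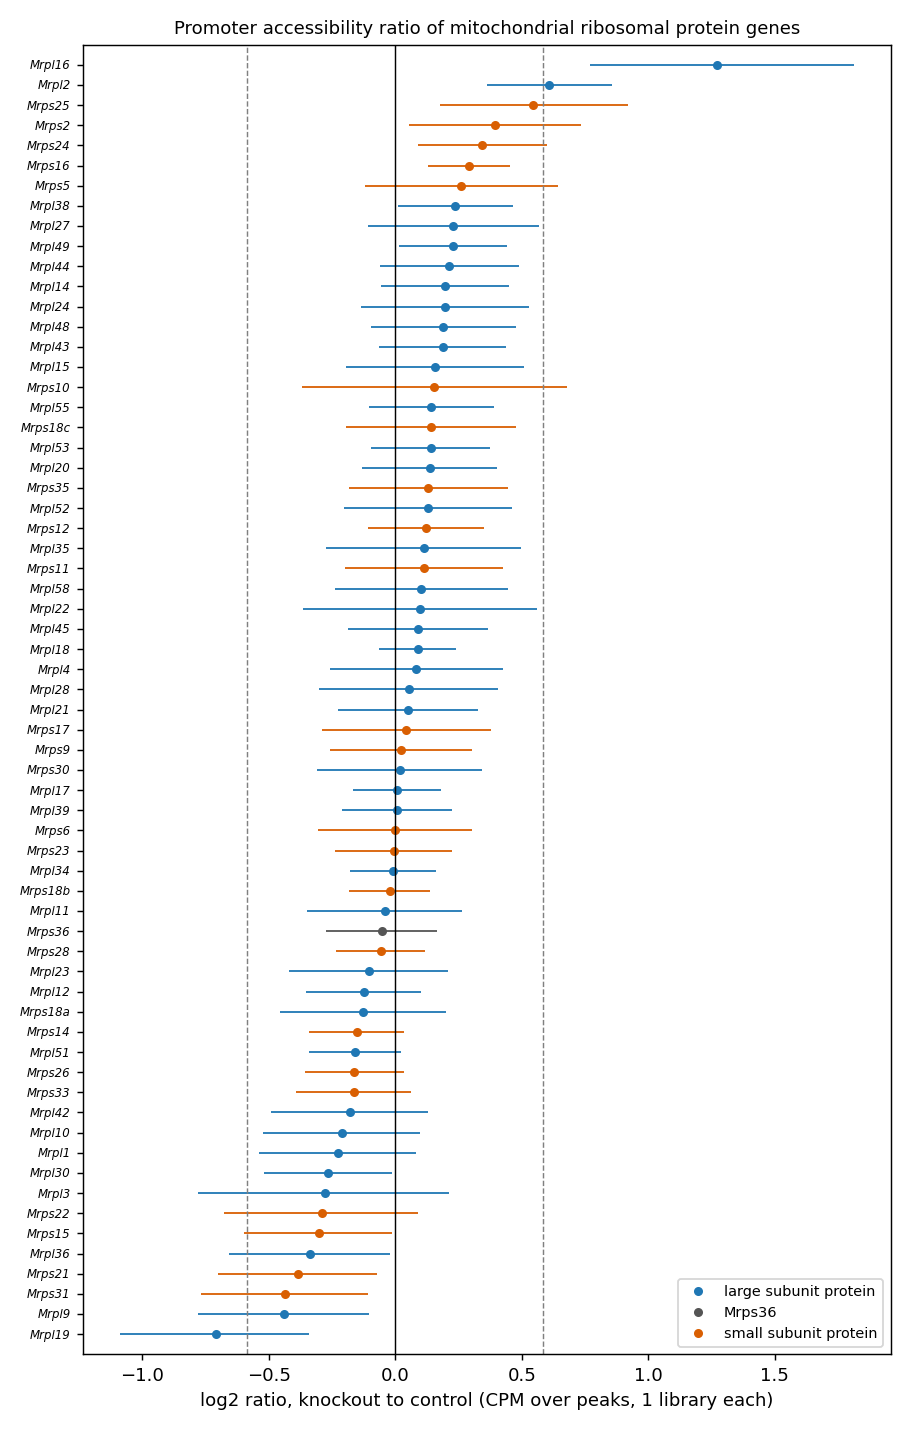
Log2 ratio of knockout to control (horizontal axis, CPM over peaks, 1 library each) at the strongest promoter peak of all 64 genes, ordered by ratio, with points coloured by subunit and lines for the 95% counting interval. Dashed lines mark 1.5-fold. Mrpl16 and Mrpl2 lie above the upper line and Mrpl19 below the lower one, and 49 of 64 intervals hold a ratio of 1. The Mrpl16 peak was called in the knockout alone, so its ratio is large by selection.

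Among the large subunit genes, Mrpl16 (ENSMUSG00000024683) encodes the counterpart of a bacterial protein near the tRNA binding sites. Its promoter peak at chr19:11770200-11770833 held 46 control and 107 knockout counts, a ratio of 2.43 (1.71 to 3.51). It was the only member whose peak the authors called in the knockout alone. The peak thus entered the table through the library where it was high, and its ratio is large by selection. Mrpl2 (ENSMUSG00000002767), whose protein lies close to the catalytic centre that joins amino acids, had its peak at chr17:46645519-46646389. It held 231 control and 337 knockout counts, a ratio of 1.52 (1.29 to 1.81), or a log2 ratio of 0.61, which was 0.43 and under 1.5-fold on the RPM scale. Mrpl2 was thus a moderately strong peak in both libraries, while Mrpl16 was among the 5 weakest members.

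Mrpl19 (ENSMUSG00000030045) encodes a protein whose bacterial counterpart lies at the interface of the subunits. Its peak at chr6:81965486-81966112 held 166 control and 97 knockout counts, a ratio of 0.611 (0.470 to 0.789). Mrpl9, whose bacterial counterpart is an elongated protein near the L1 stalk, had 180 and 127 counts, a ratio of 0.737 (0.583 to 0.930). Mrpl36, the gene of a small zinc-binding protein, had 194 and 147, a ratio of 0.792 (0.635 to 0.986). These 3 and Mrpl30, with 294 and 234 counts, were the large subunit genes whose intervals lay below 1 on the CPM scale, and with TMM those of Mrpl36 and Mrpl30 held 1. Mrpl3, a protein next to the catalytic centre whose human gene is mutated in an infantile cardiomyopathy, had 80 and 63 counts. Its ratio of 0.823 had an interval from 0.582 to 1.16, which held 1.

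Of the proteins found in mitochondria but not in bacteria, Mrpl38 had 303 control and 342 knockout counts, a ratio of 1.18 (1.01 to 1.38). Mrpl49 had 341 and 382 counts, a ratio of 1.17 (1.01 to 1.36), and on the RPM scale the intervals of both held 1 (0.894 to 1.23 and 0.895 to 1.21). Mrpl44, whose human counterpart is mutated in a hypertrophic cardiomyopathy, had 211 and 234, a ratio of 1.16 (0.958 to 1.40). Mrpl12, the stalk protein that contacts translation factors, is of bacterial ancestry and had 345 and 303 counts, a ratio of 0.918 (0.784 to 1.07). Intervals of Mrpl44 and Mrpl12 held 1.

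By symbol, the 38 Mrpl genes had a median log2 ratio of 0.09, with 25 above 0. Known structures place 2 Mrps symbols, Mrps30 and Mrps18a, in the large subunit, and the 40 genes of the large subunit by structure also had a median of 0.09. Within it the 26 genes of bacterial ancestry had a median of 0.05 with 15 above 0, and log2 ratios from -0.71 to 1.27. The upper end is Mrpl16, called in the knockout alone and so large by selection, and the next was Mrpl2 at 0.61. The 14 specific to mitochondria had a median of 0.12 with 11 above 0, and ranged from -0.18 to 0.24. The 3 members past 1.5-fold were all of bacterial ancestry on the CPM scale, but Mrps31 on the RPM scale and Mrps25 with TMM, both specific to mitochondria, were past it too. The difference between the groups of ancestry was not tested, and the grouping was made with the ratios known.

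In the small subunit no gene reached 1.5-fold on the CPM scale. Mrps25, specific to mitochondria, came nearest, with 106 control and 148 knockout counts, a ratio of 1.46 (1.13 to 1.89), and was past it with TMM scaling (log2 ratio 0.59). Mrps2, whose bacterial counterpart binds near the exit of the messenger RNA, had 132 and 166 counts, a ratio of 1.31 (1.04 to 1.66). Mrps24 had 232 and 282, a ratio of 1.27 (1.06 to 1.52). Intervals of all 3 lay above 1 on the CPM scale, but on the RPM scale those of Mrps2 (0.922 to 1.48) and Mrps24 (0.944 to 1.35) held 1. Mrps16, the gene of a protein whose loss in humans causes a fatal defect of mitochondrial translation, was among the strongest, with 571 and 669 counts and a ratio of 1.22 (1.09 to 1.37; 0.970 to 1.22 on the RPM scale). Mrps5, with 109 and 125 counts, had a ratio of 1.20, with an interval from 0.919 to 1.56 that held 1.

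On the other side, Mrps31 had 188 control and 133 knockout counts, a ratio of 0.739 (0.587 to 0.928), and was past 1.5-fold on the RPM scale (log2 ratio -0.61). Mrps21 had 202 and 148, a ratio of 0.765 (0.615 to 0.951), and Mrps15 had 227 and 176, a ratio of 0.810 (0.661 to 0.991). For these 3 the interval lay below 1, though with TMM that of Mrps15 held 1. Mrps22 and Mrps14, both linked to human cardiomyopathy, had intervals that held 1. Mrps22 had 133 and 104 counts (ratio 0.817, 0.626 to 1.06), and Mrps14 had 511 and 440 (ratio 0.900, 0.790 to 1.02).

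The 26 Mrps symbols had a median log2 ratio of 0.01, with 13 above 0 and 13 below. The 23 small subunit genes by structure had a median of 0.02. Here the 15 genes of bacterial ancestry had a median of 0.11 with 10 above 0, and the 8 specific to mitochondria a median of -0.09 with 2 above 0, so the order of ancestry was the reverse of that in the large subunit. Mrps36 belongs to neither subunit, since its protein is now known as a component of the 2-oxoglutarate dehydrogenase complex. It had 360 control and 332 knockout counts.

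The members varied in strength from 128 to 1398 summed counts, with a median of 359.5 against 414 over all genes. The strongest were Mrpl18, with 693 control and 705 knockout counts, Mrps18b, with 660 and 622, and Mrps16. They were followed by Mrpl34, with 591 and 562, and Mrpl17, with 556 and 535. Apart from Mrps16 these strong peaks had log2 ratios from -0.02 to 0.09. The weakest were Mrps10, with 62 and 66 counts, Mrpl3, Mrpl16, Mrpl22, with 80 and 82, and Mrpl35, with 113 and 117. Of the weakest 22 members 17 were above 0 (46% of all gene promoters), with a median log2 ratio of 0.11 and an SD of 0.38. That SD includes Mrpl16 at 1.27, which was called in the knockout alone and is large by selection. The middle 21 had a median of 0.00 and an SD of 0.22, and the strongest 21 a median of 0.01 and an SD of 0.19. With Mrpl16 included, the spread was smaller in the stronger peaks, where the counting error is smaller too (0.10 against 0.19 in the weakest).

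**Figure D3:**
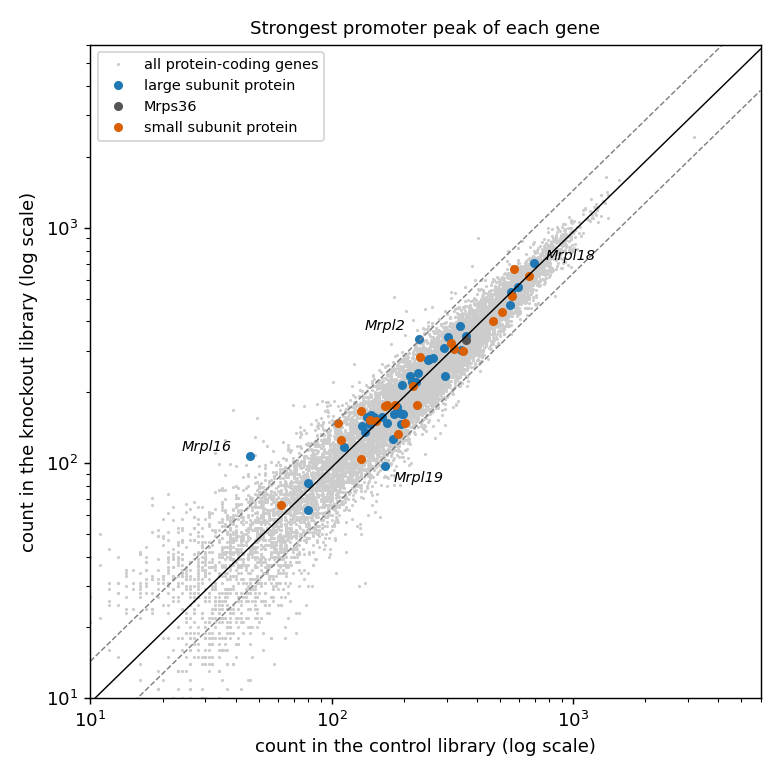
Counts in the control (horizontal) and the knockout library (vertical), both on log scales, at the strongest promoter peak of 11965 protein-coding genes in grey and of the 64 members in colour. The solid line is a ratio of 1 after scaling to counts in peaks, the dashed lines are 1.5-fold, and genes with fewer than 10 counts in a library are not drawn. Members lie within the grey cloud, with Mrpl16 (46 and 107 counts) and Mrpl2 (231 and 337) above the upper dashed line. Mrpl19 (166 and 97) lies below the lower one. Of all genes, 3.88% were at least 1.5-fold higher and 4.97% lower.

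Member peaks lay over the start site, as did those of similar families. The peak covered the start used by the authors' annotation in 63 of 64 members (98.4%, against 89.5% of all genes) and was called in both libraries in 63 (98.4%, against 90.4%). The cytosolic ribosomal proteins had 100% for both shares and the respiratory chain subunits 98.5% and 97.0%, and genes in the members' range of counts had 93.4% and 97.7%. Its width had a median of 729 bases (279 to 1284), against 723 over all genes. Members lay on 16 chromosomes, with 10 on chromosome 11 and none on X or Y. Gene ontology terms for the mitochondrial ribosome were attached to 63 of 64 identifiers, all except that of Mrps35.

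Only 3 members had more than 1 promoter peak. Mrpl48 had 3, with 196 and 214, 78 and 103, and 36 and 45 counts in the control and the knockout. Mrps18a had 2, and the stronger, with 169 and 148 counts, lay at -895 bases from an annotated start (upstream), just inside the limit of 1 kb. It lay 12829 bases from the nearest RefSeq start, so the value used for Mrps18a is not at its RefSeq start. The other, at chr17:46110789-46111206 over a different annotated start, had 113 and 95. Mrpl14 had a second peak at -881 bases with 54 and 35 counts. Just outside the limit lay a peak of Mrps21 at 1144 bases, with 28 control and 62 knockout counts, and one of Mrps9 at 1808 bases, with 28 and 17. The authors called the first in the knockout alone and the second in the control alone, so each entered the table through the library where it was high.

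Many of these genes start back to back with a neighbour. In the RefSeq table, 24 of 69 member symbols (34.8%) had the start of another protein-coding gene on the opposite strand within 1000 bases upstream. That share was 8.48% of 17492 protein-coding genes, 14% of 57 cytosolic ribosomal protein genes and 27.1% of 70 respiratory chain genes. Among partners were Twnk, the mitochondrial DNA helicase, 116 bases from Mrpl43, and Sars2, a mitochondrial tRNA synthetase, 147 bases from Mrps12. Others were Fau, which encodes a cytosolic ribosomal protein, 192 bases from Mrpl49, and Mitd1 66 bases from Mrpl30. Mrps11 and Mrpl46, one gene of each subunit, start 42 bases apart. Of the members with a start inside the peak, 14 had such a partner, with a median log2 ratio of 0.13 and 11 above 0. The 41 without had a median of 0.01 and 21 above 0. For a divergent pair the counts belong to both genes and cannot be told apart.

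The deposited table assigns each peak to 1 gene, and 14 symbols had no promoter peak of their own. Of these, 13 had their start inside a promoter peak assigned to a neighbour, all called in both libraries (Mrpl13 and Mrpl54 were placed by the end of the gene span). At the start of Mrpl37, whose peak is assigned to Cyb5rl, there were 209 control and 133 knockout counts, a ratio of 0.665 (0.531 to 0.830). It was the only one past 1.5-fold. Mrps7, in a peak of Gga3, had 422 and 485 counts (ratio 1.20, 1.05 to 1.37), and Mrpl33, in a peak of Gm38424, had 164 and 198 (ratio 1.26, 1.02 to 1.56). The other 10 had intervals that held 1.

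These were Mrpl13 in a peak of Mtbp, with 161 and 126 counts, Mrpl32 with Psma2 (267 and 261) and Mrpl40 with Hira (456 and 405). Mrpl41 shared a peak with Pnpla7 (678 and 634), Mrpl46 with Mrps11 (170 and 176) and Mrpl47 with the respiratory chain gene Ndufb5 (550 and 580). Mrpl50 shared one with Zfp189 (300 and 319), Mrpl54 with Apba3 (286 and 317), Mrpl57 with Ska3 (206 and 235) and Mrps27 with Ptcd2 (299 and 320). None of these 10 was past 1.5-fold. For Mrps34, linked to human mitochondrial disease, the nearest peak lay 121 bases from the end of the gene span at which it starts. That peak is assigned to Nme3, was called in the control alone and held 116 counts in each library. Over the 13 starts, 9 had a log2 ratio above 0 and 4 below, with a median of 0.14. With the members, each peak once, the 76 peaks had a median of 0.07 and 46 were above 0.

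Genes that build or serve the mitochondrial ribosome were taken from 6 lists. Of 5 further structural proteins without an Mrp symbol, 3 had a promoter peak, namely Gadd45gip1 (128 control and 150 knockout counts), Chchd1 (222 and 235) and Aurkaip1 (394 and 409). Of 26 assembly and RNA modification factors, 19 had a peak, with a median log2 ratio of 0.07. Nsun4, a methyltransferase for the ribosomal RNA, had 246 and 156 counts and was the only one past 1.5-fold (ratio 0.663, lower in the knockout). Ngrn had 125 and 167 and Rcc1l 185 and 219.

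The 16 measured of 19 mitochondrial translation factors had a median of -0.02 and none was past 1.5-fold. Among them Tsfm, an elongation factor, had 145 and 111 counts, Slirp 123 and 145, and the initiation factor Mtif3 65 and 51. The 12 measured of 17 mitochondrial tRNA synthetases had a median of -0.07, again with none past 1.5-fold. Cars2 had 274 and 200 counts, Tars2 175 and 132, and Lars2 167 and 185.

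The machinery that copies and transcribes mitochondrial DNA, measured for 9 of 12 genes, had the highest median of the lists with more than 3 measured genes, 0.20. In it 7 genes were above 0, beside 46% of all gene promoters, and none was past 1.5-fold. Tefm, a transcription elongation factor, had 148 and 212 counts (log2 ratio 0.58, ratio interval 1.21 to 1.86), and Top1mt, a topoisomerase, 217 and 297. Polrmt, the mitochondrial RNA polymerase, had 223 and 161 (ratio 0.754, 0.612 to 0.928), the opposite direction. Ssbp1 was lower too, with 177 and 128 (ratio 0.756, 0.597 to 0.954). Of 11 nuclear regulators of mitochondrial genes 10 were measured, with a median of 0.03 and none past 1.5-fold. The coactivator Ppargc1b had 282 and 201 counts, the related Pprc1 561 and 423, and the nuclear receptor Esrrg 141 and 175. Intervals of Nrf1, Gabpa and Yy1, the regulators named above with their motifs, held 1. Counts were 391 and 327 at Nrf1, 688 and 676 at Gabpa and 645 and 624 at Yy1.

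The 2 most similar families had medians of 0.03 each, next to 0.05 in the members. Of 67 cytosolic ribosomal protein promoters 35 were above 0, with an SD of 0.21, and Rpl38 alone was past 1.5-fold, with 172 control and 261 knockout counts. Of 66 respiratory chain subunit promoters 36 were above 0, with an SD of 0.22. Ndufa7, with 157 and 248, and Cox6c, with 64 and 93, were past 1.5-fold. In both families these genes were higher in the knockout, and none was lower by 1.5-fold. The members had weaker peaks, with a median summed count of 359.5, against 577 in the cytosolic ribosomal protein genes and 513 in the respiratory chain genes.

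**Figure D4:**
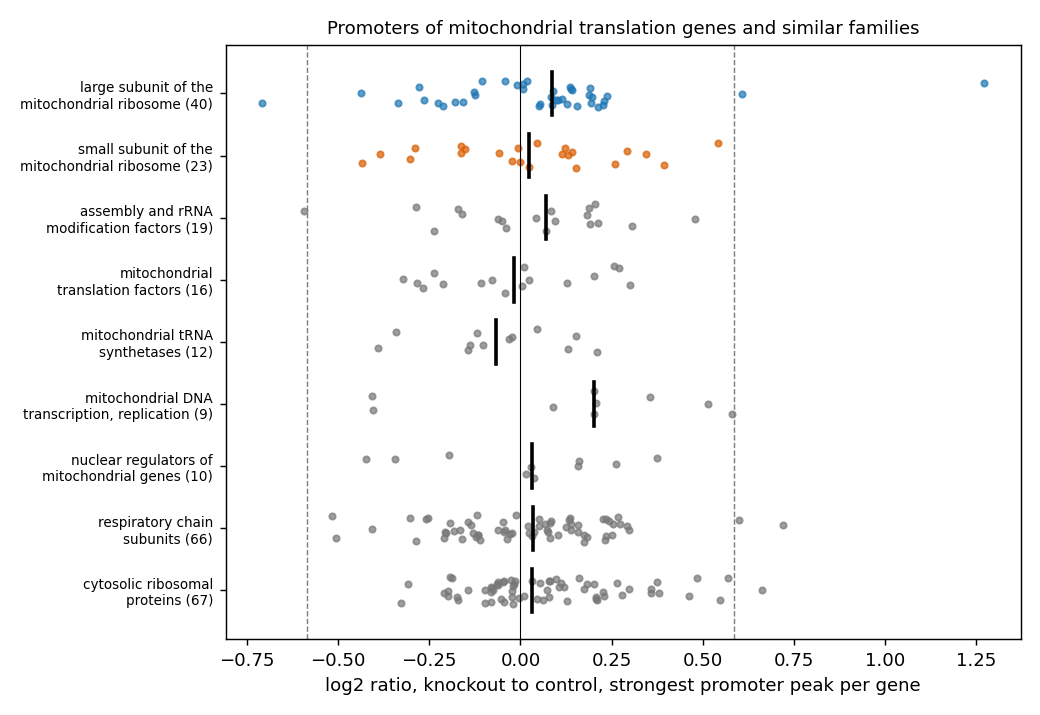
Log2 ratio of knockout to control (horizontal axis) at the strongest promoter peak of each gene, with 1 row per list and the number of genes in brackets. Points are genes, spread vertically at random, black bars are medians and dashed lines mark 1.5-fold. All list medians lie between -0.07 and 0.20 on this scale.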

How the data were processed

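The 2 heart ATAC-seq libraries, 1 per genotype label, were analysed. BWA, MACS2 and GRCm38.p6 are named, without versions, in the submitters' processing notes. Filters on reads, duplicates and any Tn5 shift were not given in the sources used here. Per its header, the table the authors deposited is 1 merged list of peaks with whole-number counts per peak, RPM (the count plus 1, times 0.01965 in the control and 0.01822 in the knockout), fold enrichment, a ratio, and a log2 fold change. Log2 ratios were recomputed from the deposited counts as CPM over all peaks, with 0.5 counts added per library.

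The table gives Ensembl identifiers only. Each took the RefSeq symbol with the mutually best overlap of spans (at least 0.3) on the same strand, and 18387 of 24480 (75.1%) matched. Members and lists were chosen with earlier results of these data known. The overlap limit was set after seeing the members' overlaps, which kept Mrps17, Mrps23 and Mrpl36. Ancestry groups, the divergent starts, the neighbours' peaks, the restriction of motif windows to starts inside the peak and the printed sequences were chosen after values were seen, and symbol patterns of both comparison families were tightened after listing symbols. Named were the 8 highest and 8 lowest ratios, the 5 strongest and 5 weakest peaks, disease-linked genes, members with several or no promoter peaks and up to 3 genes per list. Mrpl30, Mrpl49, Mrps9 and others were added after their values were seen.

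Python 3.11.15, pandas 2.3.3, SciPy 1.17.1 and, for TMM and loess alternatives, R 4.3.3 with edgeR 4.0.16 and limma 3.58.1 were used. The ratio and its counting interval were tested on counts simulated under the counting model that the interval assumes, without variation between animals. The other steps were not tested in this way. Sequences came from the RefSeq promoter table (GRCm38.p6), which had a start inside the peak for 55 members.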

Additional observations from a re-analysis of the deposited data

How the results depend on the processing

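No paired analysis was possible because there was 1 library per genotype, so no difference could be set against the spread between animals. On the authors' RPM scale the median log2 ratio was -0.12 over the members, -0.0835 over Mrpl and -0.16 over Mrps symbols, with 1 member at least 1.5-fold higher and 3 lower. With TMM scaling the Mrpl median was 0.14, where all genes had 0.03. The number of higher members was 1 with only peaks called in both libraries (63 members), with a fold enrichment of at least 10 (59 members) or with a fold of 2. The number of lower members was 0 with a fold of 2 and 2 with the neighbours' peaks added (76 peaks), an alternative chosen after seeing the data. In the other alternatives run, medians stayed inside the order-statistic interval of the main median and counts of members did not change by over 1.5 times. That interval takes genes as units, and genes are not replicates of a genotype. Requiring a summed count of at least 100 kept all 64 members, so its values equal the main ones by construction. Summing or averaging promoter peaks could change only the members with more than 1 such peak. Of 104 alternative values of 26 named members 100 lay inside the counting interval of the main ratio. The 4 outside were all on the RPM scale (Mrps16, Mrpl18, Mrps18b and Mrpl34). No member past 1.5-fold changed direction, but the largest change was 0.181 on the log2 scale. That is too small to reverse any of them, so it does not measure stability. The mean over a gene's promoter peaks was among these alternatives. Each named member has 1 promoter peak, so that value equals the main one by construction and does not measure stability. Summed counts ran from 128 to 1398 per member, and the root mean square counting error was 0.15 on the log2 scale. Differences larger than this can still lie within the counting interval. On the CPM scale the interval of the ratio was 0.774 to 1.60 at Mrps10, the weakest member. It was 0.956 to 1.18 at Mrpl18, the strongest. At Mrps22, with a log2 ratio of -0.29, the interval held 1.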

Other observations

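Away from their promoters, the identifiers of the mitochondrial ribosomal proteins carried 44 further peaks more than 1 kb from a start, with a median summed count of 91, and assignment to a gene was by the authors' annotation alone. In an intron of Mrps35 (chr6:147064839-147065140) there were 67 control and 22 knockout counts, a ratio of 0.343 (0.202 to 0.563), and the peak was called in the control alone. An intergenic peak assigned to Mrpl42 (chr10:95508115-95508314) held 7 and 33 counts, a ratio of 4.93 (2.14 to 13.2), and was called in the knockout alone. A peak at -2181 bases from the start of Mrps6 held 24 and 56 counts, a ratio of 2.44 (1.49 to 4.11), and was also called in the knockout alone. A peak that passed the caller in 1 library alone had to be high there, so these ratios are large by selection.

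Among peaks called in both libraries, one assigned to Mrpl14 (chr17:45700877-45701290) held 125 control and 63 knockout counts, a ratio of 0.527 (0.383 to 0.718). One in an intron of Mrpl33 (chr5:31602336-31602770) held 104 and 155, a ratio of 1.56 (1.21 to 2.02). Near Mrps23, an intergenic peak held 206 and 131 counts (ratio 0.664, 0.530 to 0.831), while its promoter held 321 and 306. These peaks were picked after their values were seen, and no comparison was made on them.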
